A study of Sus scrofa with 50 samples.

Results

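The genes described here encode the enzymes and regulators of cholesterol synthesis and of fatty acid synthesis, followed in 5 tissues of Korean minipigs. They were chosen by name from the Swiss-Prot protein to which each assembled transcript matched best, and the level of a gene is the sum over all transcripts with that match. The list holds 35 entries, 22 in the sterol arm and 13 in the fatty acid arm, and 32 of them (20 and 12) had a transcript among 14532 entries in all. ERG19, THIC and ACOD had none. Gene names below are the Swiss-Prot entry names, so that HMDH is HMG-CoA reductase, SRBP1 and SRBP2 are the products of SREBF1 and SREBF2, FAS is fatty acid synthase, and PLPL3 is the product of PNPLA3.

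The study set ET-type against L-type Korean minipigs (Sus scrofa) by RNA-seq of poly(A)-selected RNA. Heart, kidney, liver, lung and spleen of 10 animals were used here, 5 of each type, which gives 50 libraries. No treatment is named for either type, and the age and sex of the animals, the meaning of the type letters and the husbandry are not given in the sources used here. Each tissue was sampled once per animal, so the spread between libraries of a group is a spread between animals, and whether animals of a type were related is not given in the sources used here. The values are TPM, a length-corrected unit in which the transcripts of each library sum to 1000000, without read counts, so the depth behind a value is unknown, and no counting interval is given.

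Cholesterol is built in the cytosol and endoplasmic reticulum from acetyl-CoA through mevalonate, squalene and lanosterol, and HMG-CoA reductase is the rate-limiting step. Fatty acids are built from the same acetyl-CoA, which ATP-citrate lyase supplies, by acetyl-CoA carboxylase and fatty acid synthase, and are then elongated and desaturated. The transcription factor SREBP-2 mainly drives the sterol genes and SREBP-1c the fatty acid genes. Liver is a main site of both pathways, in pigs adipose tissue makes most of the fatty acids, and type II cells of the lung make lipid for surfactant.

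The tissue labels were checked on marker genes. In 49 libraries the marker list of the labelled tissue was the highest of the 5 tissue lists, and for each list the lowest library of its own tissue lay above every library of the others, as for hepatocyte markers (73560 TPM against at most 73.2 TPM). The kidney library of the ET-type animal S0235 stood apart. Its kidney tubule markers summed to 0.335 TPM against at least 930 TPM in the other 9 kidneys, its T cell markers to 1435 TPM and its proliferation markers to 264 TPM. It is therefore described on its own and left out of every kidney value and fit below, which leaves 4 ET-type and 5 L-type kidneys.

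Liver held by far the most mRNA of the sterol arm, and lung came next. The 20 sterol genes summed to 5441 ± 2230 TPM in liver (SD, n = 10), 1134 ± 185 TPM in lung (n = 10), 535 ± 165 TPM in kidney (n = 9), 340 ± 74.8 TPM in spleen (n = 10) and 194 ± 31.8 TPM in heart (n = 10). The 12 fatty acid genes followed the same order, with 823 ± 416 TPM in liver, 282 ± 85.9 TPM in lung, 125 ± 25.3 TPM in kidney, 107 ± 36.8 TPM in spleen and 40.4 ± 8.99 TPM in heart. Neighbours in this order overlapped between libraries in every case in the fatty acid sum, and in the sterol sum for kidney and spleen and for spleen and heart. The ratio of the sterol sum to the fatty acid sum had a median of 6.15 in liver and 3.03 in spleen, with 4.91, 4.30 and 4.01 in heart, lung and kidney. In bulk tissue, fewer cells of a type and less RNA per cell cannot be told apart.

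**Figure D1:**
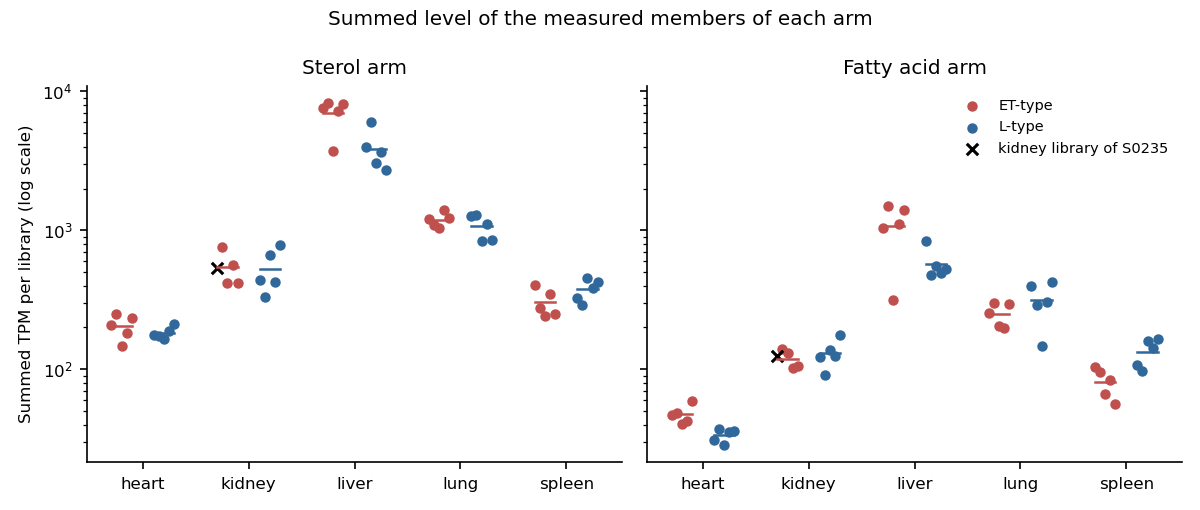
Summed TPM of the sterol arm and of the fatty acid arm (log scale) in every library, by tissue and type, with a line at each group's mean and a cross for the kidney library of S0235. Liver is highest for both sums and heart lowest, and the 10 livers spread from 2698 to 8240 TPM in the sterol arm.

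In the sterol arm 19 of 20 genes had their highest mean in liver, with SRBP2 the exception. The lowest mean was in heart for 14 and in spleen for 6. Along the mevalonate segment, mevalonate kinase (KIME) stood at 461 ± 166 TPM in liver and between 5.82 ± 2.26 TPM in heart and 15.3 ± 2.77 TPM in lung elsewhere. Isopentenyl diphosphate isomerase (IDI1), which makes the allylic isoprene unit, was the most abundant member anywhere, with 1384 ± 1002 TPM in liver against 108 ± 33.5 TPM in lung and 16.6 ± 2.65 TPM in spleen. HMG-CoA reductase (HMDH) had close means in liver (52.0 ± 42.1 TPM) and lung (51.01 ± 12.01 TPM), whose libraries overlapped, and its highest mean was in lung without S0242, S0309 or S0326.

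Among the later enzymes, the methylsterol oxidase MSMO1 reached 620 ± 280 TPM in liver and the sterol isomerase EBP 510 ± 190 TPM. Their next highest means were in lung, at 81.7 ± 25.2 TPM and 66.7 ± 11.9 TPM. Squalene epoxidase (ERG1) had a second high level in lung, 63.2 ± 16.4 TPM against 95.3 ± 39.1 TPM in liver, and 9.12 ± 7.99 TPM or less in kidney, spleen and heart. Of the regulators, SRBP2 was highest in lung (135 ± 21.2 TPM), ahead of liver (94.0 ± 25.1 TPM) and spleen (53.4 ± 17.3 TPM). INSI1, which holds the SREBP complex in the endoplasmic reticulum when sterols are plentiful, stood at 170 ± 93.0 TPM in liver and at 44.6 ± 16.9 TPM in spleen, close to its 50.5 ± 13.9 TPM in lung and above the 10.04 ± 4.82 TPM of kidney.

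**Figure D2:**
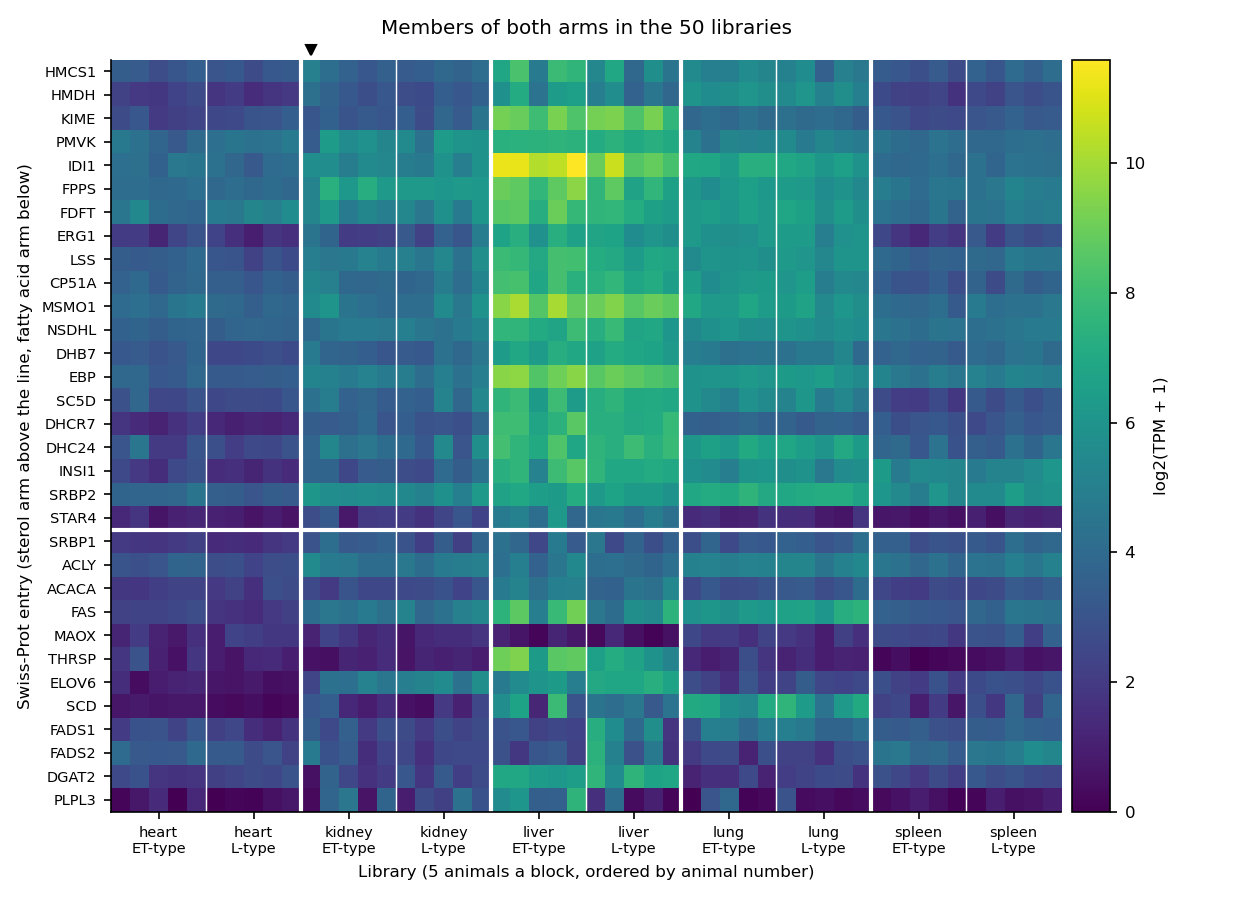
Level of each member in each library, as log2(TPM + 1) from dark (low) to bright (high), with a triangle over the kidney library of S0235. The liver block is the brightest by its mean for 19 of the 20 sterol genes, while SCD is bright in lung and liver, ELOV6 in liver and kidney, and FADS2 in 3 L-type livers and in spleen.

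The fatty acid genes were less uniform. Of these, 9 of 12 were highest in liver, ACLY and SCD in lung and the malic enzyme MAOX, which supplies NADPH, in spleen. For FADS1 and FADS2 the rank of liver rested on 1 animal, since without S0349 the liver mean of FADS1 was 16.1 ± 19.63 TPM (n = 9) against 20.8 TPM in lung, and 7 of 12 genes were then highest in liver. THRSP, a nuclear protein that promotes lipogenic gene expression, was close to liver-restricted, with 252 ± 226 TPM there and means of at most 1.90 TPM elsewhere. DGAT2, which makes triglyceride, stood at 113 ± 46.4 TPM in liver and at most 5.49 ± 3.26 TPM elsewhere. Stearoyl-CoA desaturase (SCD) was 98.1 ± 52.3 TPM in lung and 49.3 ± 73.3 TPM in liver, and these libraries overlapped. The elongase ELOV6 was high in liver (86.7 ± 44.2 TPM) and kidney (31.02 ± 12.7 TPM). The desaturase FADS2 stood at 24.4 ± 11.9 TPM in spleen and 27.3 ± 53.3 TPM in liver, where the mean without S0349 was 10.77 ± 10.97 TPM (n = 9).

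Each tissue was tested against the mean of the other tissues with limma on log2(TPM + 1) over 29725 genes, and a gene was called at a Benjamini-Hochberg adjusted p under 0.05 with a log2 difference of at least 1. In liver 28 of the 32 members were called, 27 higher and 1 lower, where 35.6% of all genes were called and 9.29% were called higher. All 20 sterol genes were higher, with a median difference of 3.15 against -0.56 over all genes, and the fatty acid median was 1.89. THRSP was furthest above (6.33 ± 0.22, SE), followed by KIME (5.47), IDI1 (4.94), DHCR7, which reduces dehydrocholesterol to cholesterol (4.67), DGAT2 (4.36) and MSMO1 (4.33). MAOX was the 1 member called lower in liver (-1.28, where 26.3% of all genes were lower), and SRBP1, ACLY, FADS1 and FADS2 were not called.

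Lung had 16 members called, 12 of them higher, against a background of 35.3% called and 31.1% higher. SCD led (4.16 ± 0.39), with ERG1 (2.53), HMDH (2.43), FAS (2.16), the sterol reductase DHC24 (1.87) and SRBP2 (1.71). THRSP, ELOV6, FADS2 and DGAT2 were lower, DGAT2 with a difference of -1.60, where 4.16% of all genes were lower. The median of all genes in lung was 0.66, and median-ratio scaling brought it to -0.04. Of 13 members then called in lung, 4 were higher (SCD, ERG1, HMDH and FAS) and 9 lower, while 11.96% of all genes were higher and 9.64% lower. With mitochondrial transcripts and the 10 highest genes left out, 11 were called, 6 higher and 5 lower, while 21.60% of all genes were higher and 6.044% lower. Heart had 30 members lower and 0 higher, with 35.7% of all genes called, 29.3% lower and 6.39% higher. The heart medians were -2.12 for the sterol arm and -1.37 for the fatty acid arm against -0.65 over all genes, and FADS2 (0.02) and MAOX (-0.11) were the exceptions.

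Spleen had 20 members called, 18 of them lower, at a background of 24.0% called, 12.6% lower and 11.5% higher. FADS2 (1.65 ± 0.30) and MAOX (1.30 ± 0.16) were higher in spleen, while IDI1 (-2.41), THRSP (-2.36) and the lathosterol oxidase SC5D (-2.22) were furthest below. Kidney had 9 of 32 members called, near the background share of 23.0%. Of these, ELOV6 (1.83 ± 0.16) and PLPL3 (1.5 ± 0.44), a lipid droplet acylhydrolase, were higher, where 16.9% of all genes were, and 7 were lower, where 6.11% were. Much of the kidney ELOV6 came from transcripts that matched only 53 and 51 residues, with kidney means of 10.56 and 8.918 TPM. Those that matched 265 residues had 8.398 and 1.538 TPM. Over 20 alternatives run the ELOV6 difference ranged from 0.92 to 2.18, and 19 kept the call. No left-out animal moved a tissue count by over 1.5 times.

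Between the types, the mean summed TPM of both arms differed most in liver, and no member passed the test there. On the log2 scale the median difference of the fatty acid arm was 0.49 in liver, against 0.59 in heart and -0.56 in spleen. The sterol sums of the ET-type livers were 7617, 8240, 3752, 7264 and 8123 TPM for the animals S0235, S0242, S0276, S0309 and S0326, and those of the L-type livers 3989, 6015, 3068, 3640 and 2698 TPM for S0349, S0355, S0377, S0384 and S0385. The values of single animals are given in this order throughout. Of the ET-type livers, 4 of 5 lay above every L-type liver, and S0276 lay among the L-type. The fatty acid sums were 1032, 1487, 314.6, 1118 and 1402 TPM in the ET-type and 835.2, 473.4, 550.9, 491.2 and 528.1 TPM in the L-type livers, again with S0276 as the lowest of the ET-type animals and here the lowest of all 10.

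Of the 31 members tested in liver 0 were called (limma, adjusted p under 0.05), where 2 of 21445 genes or 0.00933% were called. An unadjusted limma p under 0.05 was found for 12 members and for 1412 of the 21445 genes. The 20 sterol genes had a median difference, ET-type minus L-type, of 0.49 on the log2 scale, from 0.00 to 1.93, against -0.06 over all genes, of which 42.6% had a higher mean in the ET-type. IDI1 stood at 2421, 2388, 1240, 1434 and 3110 TPM in the ET-type livers and at 483, 1641, 358, 467 and 298.5 TPM in the L-type livers. The L-type animal S0355 lay above 2 of the ET-type animals, and the other 4 L-type livers were below all ET-type livers. The difference was 1.93 ± 0.44 (SE; adjusted p = 0.335), and without S0355 it was 2.34 ± 0.31 with an adjusted p of 0.0274. Over the 19 alternatives run the adjusted p of IDI1 ranged from 0.000121 to 0.741.

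The 6 widest sterol differences were those of IDI1, HMCS1, HMDH, FPPS, FDFT and LSS. HMG-CoA synthase (HMCS1) stood at 113, 310, 25.5, 239 and 192 TPM in the ET-type and 40.45, 123, 14.2, 53.4 and 21.0 TPM in the L-type livers, a difference of 1.77 ± 0.70 (adjusted p = 0.690). HMDH, the rate-limiting enzyme, stood at 55.4, 141, 20.7, 82.0 and 93.3 TPM against 30.2, 50.2, 11.4, 22.8 and 13.3 TPM (1.53 ± 0.51, adjusted p = 0.642). In both genes S0276 fell inside the range of the L-type animals. The other 4 ET-type livers lay above all 5 L-type livers for HMDH, and for HMCS1 likewise except that S0235 lay below S0355. Farnesyl diphosphate synthase (FPPS) had means of 467 ± 204 and 202 ± 134 TPM (1.31 ± 0.44) and squalene synthase (FDFT) 333 ± 147 and 145 ± 54.6 TPM (1.15 ± 0.37).

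Lanosterol synthase (LSS), which closes the sterol rings, stood at 239, 208, 126, 288 and 268 TPM in the ET-type and 142, 129, 81.3, 123 and 107 TPM in the L-type livers. S0276 alone kept the groups from separating, and the difference was 0.92 ± 0.25 (adjusted p = 0.460). Between the means KIME differed by 0.01 ± 0.37, DHC24 by 0.00 ± 0.31, the ketosterol reductase DHB7 by 0.05 ± 0.23 and SC5D by 0.06 ± 0.35. MVD1, which is no member and was looked at after its values were seen because the listed name ERG19 for the same decarboxylase matched nothing, had 95.5 ± 77.7 TPM in the ET-type and 31.04 ± 11.8 TPM in the L-type livers (1.32 ± 0.47, adjusted p = 0.646).

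**Figure D3:**
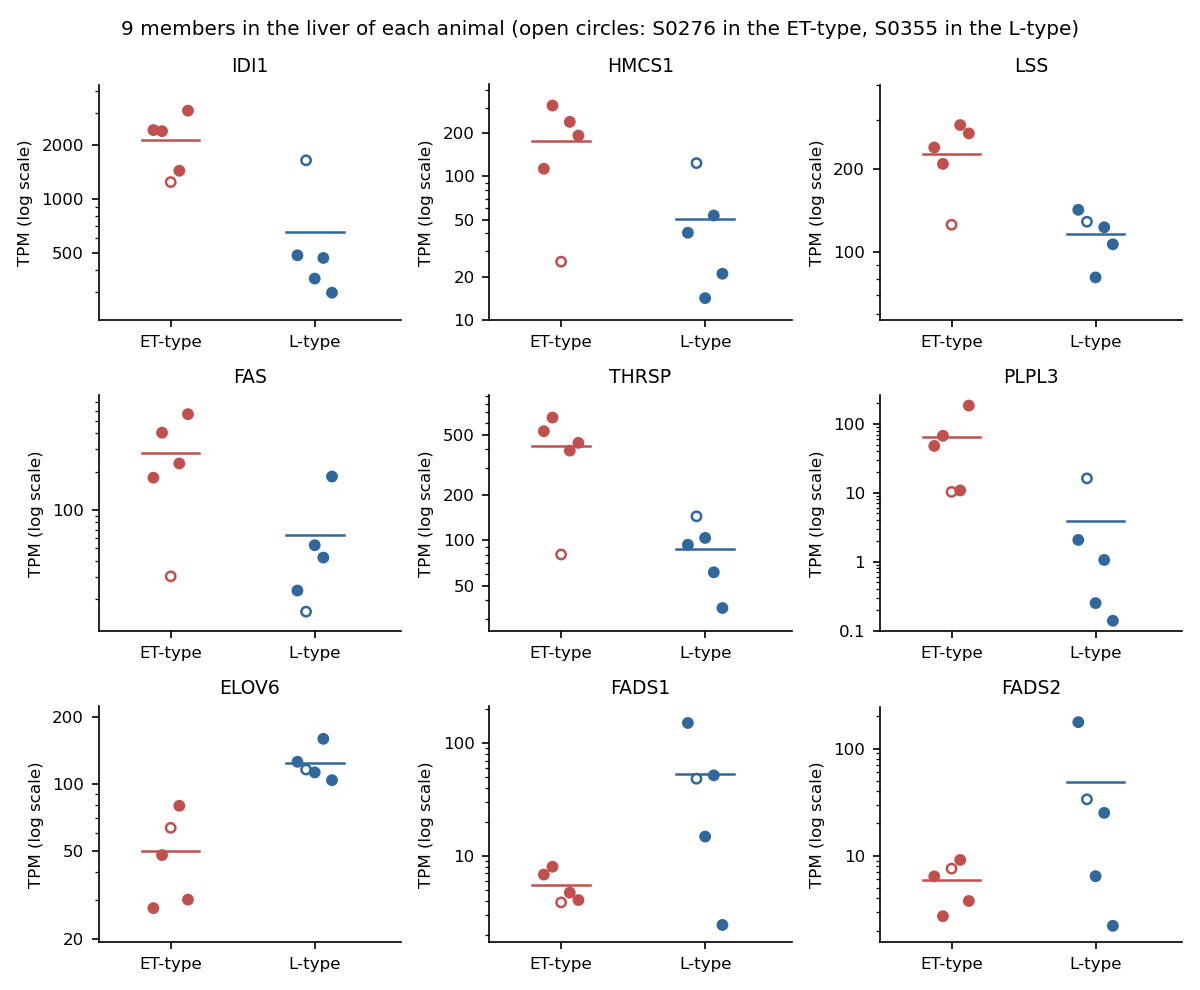
TPM of 9 members in the liver of each animal (log scales that start above 0), with a line at each group's mean and open circles for S0276 and S0355. ELOV6 is the panel in which the groups do not overlap, with the ET-type lower, and S0276 is the lowest ET-type animal for HMCS1, LSS, FAS, THRSP, PLPL3, IDI1 and FADS1.

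The fatty acid arm of liver split. FAS, THRSP, PLPL3, SCD, ACACA, ACLY and SRBP1 had higher means in the ET-type, and ELOV6, FADS1, FADS2 and DGAT2 higher means in the L-type, with a median of 0.49 over the 11 tested. FAS stood at 179, 403, 30.2, 231.5 and 563 TPM in the ET-type and 23.4, 15.99, 53.0, 42.4 and 183 TPM in the L-type livers (2.14 ± 0.79, adjusted p = 0.662). S0276 was again the low ET-type animal, and S0385 the high L-type one, so the groups overlapped. THRSP stood at 526, 647, 80.3, 391 and 440 TPM against 93.1, 144, 103, 61.15 and 35.5 TPM, and the 4 ET-type livers other than S0276 lay well above all 5 L-type livers (2.11 ± 0.55, adjusted p = 0.409). PLPL3 had the widest difference of all members, with 47.8, 67.0, 10.3, 10.8 and 184 TPM against 2.06, 16.2, 0.25, 1.06 and 0.139 TPM (3.8 ± 0.89, adjusted p = 0.335).

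In the other direction, ELOV6, which elongates palmitate to stearate, stood at 27.45, 47.7, 63.35, 79.7 and 30 TPM in the ET-type and 126, 116, 113, 160 and 104 TPM in the L-type livers. Every ET-type liver was below every L-type liver. The difference was -1.40 ± 0.29 (adjusted p = 0.239), and ELOV6 was the 1 member whose groups did not overlap in liver, where 1.08% of all genes did not overlap and 0.751% were lower in this way. FADS1, the desaturase that makes arachidonate, stood at 6.82, 8.004, 3.86, 4.72 and 4.05 TPM against 151, 48.4, 14.8, 51.8 and 2.44 TPM (-2.22 ± 0.80, adjusted p = 0.647). Of the L-type animals, 4 of 5 were above the whole ET-type range and S0385 was below it.

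FADS2, which lies near FADS1 on chromosome 2 of Sscrofa11.1 (RefSeq genes at chr2:9633941-9666666 for FADS2 and chr2:9735425-9747405 for FADS1), was highest and lowest in the same livers, S0349 and S0385. It stood at 6.40, 2.72, 7.57, 9.13 and 3.78 TPM in the ET-type and 176, 33.6, 6.44, 25.1 and 2.21 TPM in the L-type livers (-1.68 ± 0.87, adjusted p = 0.794). Here S0377 also fell within the ET-type range. SCD varied widely within the ET-type, with 51.3, 106, 1.34, 239 and 6.72 TPM in the ET-type and 20.7, 16.5, 23.4, 8.48 and 20.1 TPM in the L-type livers (0.74 ± 1.06, adjusted p = 0.957). Hepatocyte markers summed to 73560 to 198600 TPM in the ET-type and 128400 to 179600 TPM in the L-type livers, and their part in these differences was not tested.

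Liver calls depended on how the spread was estimated. With 1 fit of all 49 libraries and the animal as replicate block, 10 members were called in liver, where 1.31% of all genes were. IDI1 (adjusted p = 0.000121), PLPL3 (0.00227), LSS (0.0278), HMCS1, HMDH, FPPS, FAS and THRSP were higher in the ET-type, and ELOV6 (0.00160) and FADS1 lower. That fit takes the spread from all tissues together, and the separate liver fit takes it from the 10 livers. Its standard errors in liver were 0.31 for IDI1, 0.75 for PLPL3, 0.27 for ELOV6 and 0.23 for LSS. Each was smaller than in the separate liver fit given above. Whether the pooled spread holds for liver was not tested.

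In heart, where both summed levels were lowest, the median difference of either arm was above 0. The fatty acid sums were 46.53, 48.62, 40.45, 42.13 and 58.62 TPM in the ET-type hearts and 31.11, 37.11, 28.34, 35.55 and 35.75 TPM in the L-type hearts, without overlap. None of the 29 members tested was called (0 with limma), at a background of 0.0238% called. An unadjusted limma p under 0.05 was found for 11 members and for 4670 of 21014 genes. The medians were 0.31 for the sterol arm and 0.59 for the fatty acid arm against 0.09 over all genes, and 22 of 29 members had a higher mean in the ET-type against 58.1% of all genes.

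The groups did not overlap for 5 of 29 members in heart, where 4.68% of all genes did not overlap, and all 5 were higher in the ET-type, as 3.11% of all genes were, with 0 lower against 1.57%: LSS, DHB7, SRBP2, ACLY and FAS. DHB7 stood at 8.13, 8.915, 6.77, 8.545 and 12.3 TPM against 4.70, 4.69, 5.09, 6.15 and 5.11 TPM (0.68 ± 0.17, adjusted p = 0.0890). LSS stood at 9.82, 8.61, 9.64, 11.07 and 14.65 TPM against 7.50, 6.98, 3.69, 6.98 and 5.16 TPM (0.75 ± 0.21, adjusted p = 0.0953). Without the ET-type animal S0242, DHB7 (adjusted p = 0.0448), LSS (0.0417) and FDFT were called, and the share of all genes called in that fit is not given here.

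FAS in heart stood at 3.66, 4.13, 4.25, 4.68 and 5.60 TPM in the ET-type and 2.42, 2.10, 1.79, 2.84 and 3.53 TPM in the L-type (0.64 ± 0.18, adjusted p = 0.0967). FADS1 stood at 2.99, 6.59, 6.79, 4.21 and 7.79 TPM against 3.55, 4.61, 1.89, 1.17 and 2.29 TPM (0.87 ± 0.30, adjusted p = 0.133), and these groups overlapped. The most abundant member of each arm in heart, FADS2 in the fatty acid arm and FDFT in the sterol arm, differed in opposite directions by their means. FADS2 stood at 15.6, 8.33, 8.18, 8.46 and 14.8 TPM against 8.71, 8.80, 5.33, 7.26 and 3.71 TPM (0.64 ± 0.26, adjusted p = 0.187). FDFT stood at 22.45, 41.55, 16.3, 14.1 and 12.6 TPM against 26.3, 23.7, 37.45, 32.4 and 49.5 TPM (-0.72 ± 0.31, adjusted p = 0.201).

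Some sums of cell markers also differed between types in heart. The sum of the 4 heart muscle markers was 17410 to 59960 TPM in the ET-type and 66970 to 77530 TPM in the L-type, without overlap. Proliferation markers (5 of 6 measured) summed to 13.7 to 24.7 TPM against 8.75 to 12.7 TPM, also without overlap. Fibroblast markers (4 of 4 measured) summed to 652 to 2027 TPM against 193 to 688 TPM. Macrophage markers (4 of 5 measured) summed to 139.5 to 284 TPM against 50.5 to 184 TPM. Red cell markers (4 of 4 measured) summed to 129 to 1161 TPM against 13.4 to 135 TPM. The fibroblast, macrophage and red cell sums overlapped between types. Their part in the heart differences was not tested.

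In lung FAS and DGAT2 had lower means in the ET-type, and IDI1 and MSMO1 higher ones. None of the 32 members was called (0 with limma), at a background of 0.213%. An unadjusted limma p under 0.05 was found for 2 members and for 4729 of 29139 genes. FAS stood at 56.7, 68.7, 54.5, 73.4 and 66.65 TPM in the ET-type lungs and 99.0, 101.1, 67.2, 151 and 179 TPM in the L-type lungs, where only S0377 overlapped with the ET-type (-0.82 ± 0.24, adjusted p = 0.150). DGAT2 stood at 1.26, 2.06, 1.99, 4.94 and 1.14 TPM against 3.34, 4.26, 5.17, 5.50 and 2.23 TPM, with S0309 the ET-type animal among the L-type values (-0.70 ± 0.32, adjusted p = 0.303).

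The sterol median in lung was 0.11 and the fatty acid median -0.08, beside -0.15 over all genes, and 19 of 32 members had a higher mean in the ET-type against 35.1% of all genes. IDI1 stood at 123, 117, 81.0, 154 and 159 TPM against 125, 101.0, 69.8, 92.6 and 60.1 TPM (0.51 ± 0.23, adjusted p = 0.314). MSMO1 stood at 124, 73.8, 77.4, 111 and 84.9 TPM against 79.35, 103, 42.6, 67.7 and 53.0 TPM (0.48 ± 0.24, adjusted p = 0.356). Both overlapped between types. SRBP2, the most abundant sterol member of lung, stood at 120, 139.5, 131, 183 and 128 TPM against 121, 135, 144, 143 and 102 TPM, and its groups overlapped.

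SCD in lung stood at 130, 124, 53.1, 40.5 and 134 TPM against 189, 84.2, 20.2, 73.2 and 132 TPM. The groups overlapped over most of their ranges (0.11 ± 0.55). Markers of alveolar type II cells, which make surfactant lipid, summed to 3681 to 8924 TPM in the ET-type and 5140 to 26080 TPM in the L-type lungs, and macrophage markers to 110 to 424 TPM against 357 to 1194 TPM. Their part in the lung values was not tested.

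In spleen both arms had lower means in the ET-type, as most genes did. There 5 of 29 tested members were called, all lower (limma, adjusted p under 0.05), while 22.2% of all genes were called and 21.5% were called lower, so the members' share was close to the background. SC5D stood at 5.30, 3.32, 3.15, 5.12 and 2.67 TPM in the ET-type and 8.79, 5.24, 8.82, 6.16 and 8.65 TPM in the L-type spleens (-0.81 ± 0.23, adjusted p = 0.0341). ERG1 stood at 4.74, 2.47, 1.49, 3.35 and 2.38 TPM against 8.41, 3.18, 7.10, 5.46 and 6.70 TPM (-0.89 ± 0.28, adjusted p = 0.0422). For both genes S0355 was the lowest L-type spleen and was within the ET-type range.

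LSS in spleen stood at 14.8, 12.45, 9.45, 12.04 and 11.02 TPM against 15.2, 13.0, 27.1, 21.9 and 21.3 TPM (-0.65 ± 0.21, adjusted p = 0.0478). FAS stood at 11.7, 10.3, 8.84, 8.30 and 7.46 TPM against 13.2, 11.1, 22.7, 21.3 and 19.3 TPM (-0.81 ± 0.22, adjusted p = 0.0318). FADS2 stood at 21.3, 23.9, 13.0, 15.4 and 9.27 TPM against 23.4, 21.7, 28.2, 48.6 and 39.4 TPM (-0.93 ± 0.28, adjusted p = 0.0397). In each of these 3 genes S0377, S0384 and S0385 were above all ET-type spleens, while S0349 and S0355 lay near the upper ET-type values. SRBP2, the most abundant sterol member of spleen, was not called, with 67.0, 43.4, 28.6, 65.1 and 38.1 TPM against 45.9, 44.2, 88.7, 53.6 and 58.9 TPM.

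The spleen medians lay near that of the whole library, with -0.40 for the sterol arm and -0.56 for the fatty acid arm against -0.47 over all genes. Of the members 2 of 29 had a higher mean in the ET-type, against 13.2% of all genes. Red cell markers (4 of 4 measured) summed to 110600 to 337500 TPM in the ET-type and 5495 to 150400 TPM in the L-type spleens, and the globins HBA and HBB alone took 10.9 to 33.3% against 0.543 to 14.8% of the TPM. After median-ratio scaling, which brought the median of all genes to 0.01, 0 of the 5 genes were called: SC5D had an adjusted p of 0.259, ERG1 of 0.268, LSS of 0.728, FAS of 0.344 and FADS2 of 0.346. Under the replicate block, where 20.7% of all genes were called, the spleen kept 1 call, LSS. Without S0276, S0326, S0377, S0384 or S0385 it had 0, against 2 without S0242 and 9 without S0355. For the fits without 1 animal, the share of all genes called is not given here.

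In kidney, with 4 ET-type and 5 L-type libraries, none of the 32 members was called (0 with limma), at a background of 0.00376%. An unadjusted limma p under 0.05 was found for 0 members and for 2312 of 26569 genes. FPPS stood at 164, 70.8, 151 and 76.8 TPM in S0242, S0276, S0309 and S0326 and at 76.2, 76.3, 67.2, 75.4 and 71.9 TPM in the L-type kidneys (0.55 ± 0.29, adjusted p = 0.6004). A pair of ET-type kidneys was high and the other pair sat with the L-type. ELOV6, whose mean was lower in ET-type livers, stood at 19.0, 18.0, 34.4 and 22.5 TPM against 30.2, 35.6, 47.8, 19.4 and 52.5 TPM in kidney (-0.60 ± 0.33, adjusted p = 0.605), with overlap.

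ERG1 in kidney stood at 12.3, 3.002, 3.25 and 3.73 TPM against 8.52, 3.82, 11.6, 7.72 and 28.2 TPM (-0.92 ± 0.52, adjusted p = 0.610). SRBP1 stood at 17.5, 8.53, 9.29 and 11.5 TPM against 6.82, 3.44, 9.68, 3.65 and 12.9 TPM (0.71 ± 0.39, adjusted p = 0.606). Neither separated the types. The medians were -0.10 for the sterol arm and 0.14 for the fatty acid arm, against -0.28 over all genes, and 15 of 32 members had a higher mean in the ET-type against 20.3% of all genes.

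**Figure D4:**
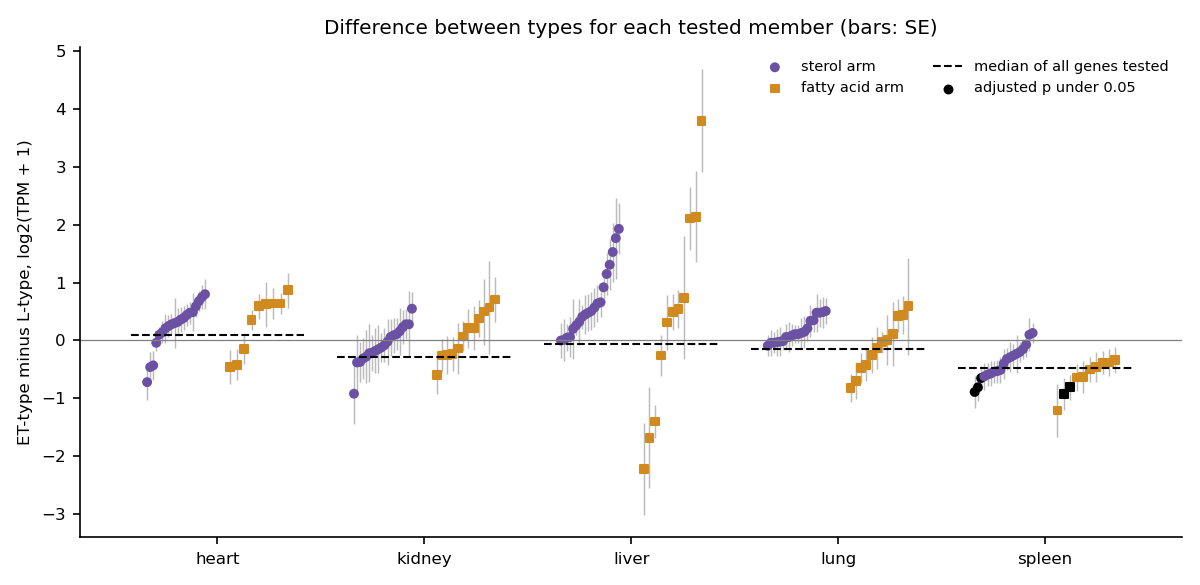
Difference between ET-type and L-type means (log2 scale, ET-type minus L-type, bars are standard errors) for each member in each tissue, with the median of all genes as a dashed line and the 5 called members in black. The members spread most widely in liver, from -2.22 for FADS1 to 3.8 for PLPL3, and shift below 0 in spleen together with the median of all genes at -0.47.

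Whether the type difference itself varied over the 5 tissues was tested as an interaction in 1 fit of 49 libraries. The limma F test gave an unadjusted p under 0.05 for 18 of the 32 members and for 7719 of 29725 genes. Of the members 8 were called, at a background of 6.10%. They were LSS (adjusted p = 0.00818), FAS (0.0132), IDI1 (0.0138), THRSP (0.0269), ELOV6 (0.0274), HMDH (0.0365), FDFT (0.0366) and FADS1 (0.0376). LSS ran from 0.92 in liver and 0.75 in heart to -0.65 in spleen, and FAS from 2.14 in liver to -0.82 in lung and -0.81 in spleen. FADS1 ran the other way, with 0.87 in heart and -2.22 in liver, and FDFT stood at -0.72 in heart against 1.15 in liver. The median of all genes was itself -0.47 in spleen, against -0.06 in liver, 0.09 in heart and -0.15 in lung. With median-ratio scaling the spleen difference was -0.09 for LSS and -0.26 for FAS. The count fell to 0 without the ET-type animal S0326, to 1 without S0384, to 2 without S0377, to 3 without S0385 and to 4 without S0235 or without S0349. For these fits the share of all genes called is not given here. With the replicate block the count was 14, at a background of 13.1%.

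Averaged over heart, liver, lung and spleen of each animal, no member was called between types (0 with limma), at a background of 0.0104%. Before adjustment, 6 of the 32 members had a limma p under 0.05, as did 5331 of 28875 genes. PLPL3 differed by 1.16 ± 0.31 (adjusted p = 0.150), THRSP by 0.69 ± 0.21 (0.171) and IDI1 by 0.64 ± 0.17 (0.148). FADS2 was lower by its mean, with -0.53 ± 0.25 (0.278). The medians were 0.17 for the sterol arm, -0.08 for the fatty acid arm and -0.14 for all genes.

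The members were pieced together from 88 assembled transcripts, up to 6 for a member, and this touches some values. SCD shows it most clearly. One full-length transcript of SCD, assembled from ET-type brain, stood in lung at 127.5, 75.7, 22.2, 0 and 84.1 TPM in the ET-type and at 97.9, 0, 0.055, 0 and 0 TPM in the L-type animals. In liver the same transcript stood at 50.15, 48.4, 0.393, 0 and 2.28 TPM against 7.002, 0, 0.053, 0.040 and 0 TPM. The same 5 animals, S0309, S0355, S0377, S0384 and S0385, were at or near 0 in both tissues.

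The other full-length SCD transcript, assembled from L-type lung, stood in lung at 0.034, 10.03, 3.78, 13.4 and 6.92 TPM in the ET-type and 28.6, 51.1, 6.92, 45.55 and 79.5 TPM in the L-type. S0235 had nearly none of it in lung, where the brain transcript made 98.2% of its SCD, or in liver, where it made 97.8%. Each transcript alone therefore orders the animals differently from the SCD sum, which overlapped between types in both tissues.

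**Figure D5:**
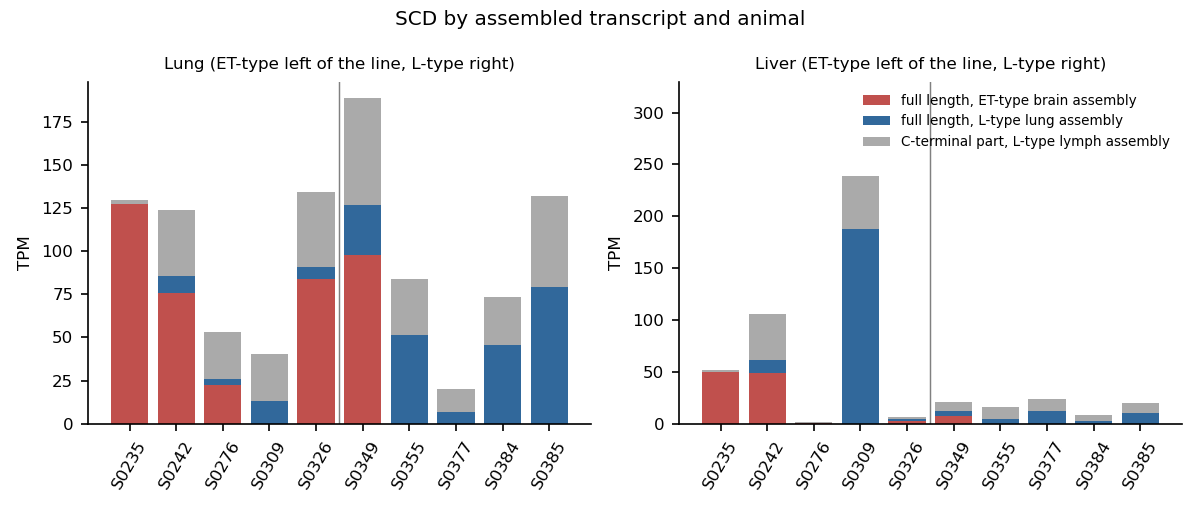
TPM of the SCD transcripts in lung and liver of each animal, stacked by transcript. The transcript assembled from ET-type brain is at or near 0 in S0309, S0355, S0377, S0384 and S0385 in both tissues, and the transcript assembled from L-type lung is lowest in S0235.

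FADS1 also had a pair of transcripts over nearly the whole protein (residues 5 to 444 each). The one assembled from ET-type liver stood in liver at 0, 4.93, 0.942, 0 and 3.52 TPM in the ET-type and 64.9, 15.5, 1.71, 5.91 and 0 TPM in the L-type animals. The one assembled from L-type liver stood at 5.50, 0.0540, 0.613, 3.70 and 0 TPM against 75.1, 29.99, 11.6, 43.0 and 1.07 TPM. Both were highest in S0349, so the high FADS1 sum of that liver did not rest on 1 of the transcripts.

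Of the members 12 of 32 had a separate transcript for a short stretch at the end of the protein, chosen for description after the values were seen. These 13 transcripts made 28.2 to 39.2% of the summed TPM of the 12 members in ET-type hearts and 10.5 to 26.0% in L-type hearts, without overlap. In spleen the shares were 33.9 to 51.8% against 28.1 to 42.3%, in lung 35.2 to 50.1% against 24.9 to 50.2% and in liver 15.3 to 33.2% against 25.3 to 36.1%. In kidney they were 43.3 to 50.5% against 36.3 to 45.6%. The part of these shares in the type differences was not tested.

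The kidney library of S0235, shown apart, had 7 members above the range of the other 9 kidneys, 19 within it and 6 below. Above were HMCS1 (32.0 TPM against 7.75 to 17.4 TPM), HMDH (18.7 TPM), the demethylase CP51A (39.7 TPM), DHB7 (26.5 TPM), EBP (36.2 TPM), ACLY (45.0 TPM against 16.1 to 32.2 TPM) and FADS2 (27.4 TPM against 1.89 to 9.31 TPM). Below were ELOV6 (4.37 TPM against 18.0 to 52.5 TPM), PMVK (9.36 TPM against 19.1 to 85.5 TPM), FPPS (35.4 TPM), the dehydrogenase NSDHL (14.1 TPM), DGAT2 (0.443 TPM) and PLPL3 (0.243 TPM). Kidney tubule markers in this library were near 0, as given above.

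Other genes of the pathways were followed as 2 lists, 30 of sterol uptake, export, esterification and regulation (27 measured) and 32 of fatty acid supply, esterification and regulation (29 measured). In liver against the other tissues, 16 sterol handling genes were called, 13 of them higher, where 35.6% of all genes were called, 9.29% higher and 26.3% lower. Among the 13 were the bile acid enzyme CP27A (5.80), the bile acid receptor NR1H4 (5.61) and SOAT2, which esterifies cholesterol (5.17). Of the fatty acid handling genes 22 were called, 12 higher and 10 lower. The carbohydrate-response factor MLXPL (4.85) and the acyl-CoA synthetase ACSL1 (3.08) were higher in liver, and FADS3 (-3.69) and PPARG (-3.45) lower.

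Between types, 0 genes of either list were called in heart, kidney, liver or lung (limma). In liver ABCG8, which exports sterols into bile, had means of 17.2 TPM in the ET-type and 37.9 TPM in the L-type without overlap (-1.10 ± 0.26, adjusted p = 0.335). ACSL4 had 43.5 TPM against 11.8 TPM, also without overlap (1.47 ± 0.42, adjusted p = 0.4995). In liver 1.08% of all genes did not overlap between types, 0.331% higher and 0.751% lower in the ET-type. How many genes of the lists did not overlap there is not given here. In spleen 9 of 21 tested sterol handling genes and 7 of 24 fatty acid handling genes were called lower, beside the 21.5% of all genes. The 7 of 8 adipocyte markers that were measured summed to 72.2 to 268 TPM in heart, 25.8 to 65.3 TPM in kidney, 17.3 to 52.1 TPM in liver, 27.1 to 153.5 TPM in lung and 6.17 to 11.96 TPM in spleen. FABP4 reached 245 TPM and PLIN4 69.0 TPM in heart and CIDEC 78.0 TPM in lung, while leptin (LEP, 0 to 0.33 TPM) and adiponectin (ADIPO, 0 to 0.915 TPM) were at or near 0 in every library. Their part in the levels of the members was not tested.

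Once the mean of each tissue and type was taken off, each member was set against the rest of its arm. Pearson's r of a member with the mean of the other members of its arm was taken over the 49 libraries, which share animals and tissues. It ran from 0.395 for NSDHL to 0.876 for CP51A in the sterol arm, and from -0.156 for ELOV6 to 0.643 for ACLY in the fatty acid arm. ELOV6 (0.238), SCD (0.631 against 0.585), FAS, MAOX, THRSP, FADS2, DGAT2 and PLPL3 had a higher r with the sterol mean than with their own arm. SRBP1, ACLY, ACACA and FADS1 had a higher r with their own arm. The sterol mean was taken over 20 members and the own mean over the rest of 12, so the r values are not on equal terms. Some gaps were small, as for PLPL3 (0.201 against 0.182). In the sterol arm only NSDHL had a higher r with the fatty acid mean (0.411). Among 10517 entries, those most like the sterol mean were WDR70 (r = 0.744), RDH11, TCPA, HRG and COPT1 (0.720), and those most like the fatty acid mean were MCM6 (0.768), ZN281, VP35L, MMP14 and NOMO1 (0.736). These correlations are descriptions over libraries and carry no test.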

How the data were processed

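RNA was extracted with TRIzol and made into stranded poly(A) libraries, per the labels' protocols. The submitters' processing notes name Trimmomatic 0.36 (a read trimmer), Salmon 1.10.0 (a transcript quantifier) and the build Sscrofa11.1. The authors deposited 1 table of TPM per transcript (57085 transcripts, each column summing to 1000000), with read counts not used here, and a table of the best Swiss-Prot match of each transcript, which 63.9% of transcripts had. Transcript names carry the tissue and type whose assembly they came from. TPM are shares of a library, so a few abundant transcripts lower all others.

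TPM were summed over transcripts with the same Swiss-Prot entry name, and transcripts without a match were kept as genes of their own (35133 genes). Type and tissue were compared with limma 3.58.1 in R 4.3.3 (trend, empirical Bayes) on log2(TPM + 1), keeping genes whose libraries in the fit averaged 1 TPM or more, with p-values adjusted by Benjamini-Hochberg over all genes tested. A low gene's change is understated on this scale. The type was tested in each tissue on its own libraries, and tissues and the interaction in 49 libraries. The steps were tested on simulated data.

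Libraries of the same animal deviated together from the means of their groups: residuals of the fit correlated at a mean r of 0.257 over 96 pairs of libraries of the same animal, 92 of them over 0.1, and at -0.06443 over 384 pairs of different animals of a type. Residuals cancel out over the animals of a group, so the second value largely follows from the first and is no separate control. The pairing comes from the animal numbers in the labels, and the fit with the animal as replicate block was an alternative (block correlation 0.124). The others were a pseudocount of 0.1, no filter and a filter at 5 TPM, median-ratio scaling, leaving out mitochondrial transcripts and the 10 highest genes, keeping the S0235 kidney, leaving out each animal, and, chosen after seeing the data, members from long matches only (at least 50% of the longest match) and the highest tissue of each member without each animal.

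The members and lists were chosen with earlier results of these data known. Named were the 2 members of each arm with the smallest p in each type fit, the most abundant of each arm in each tissue, members that passed, list genes and the 5 entries most like each arm. Gene positions are those of 31 symbols placed on RefSeq's Sscrofa11.1 annotation. No sequences are shown. Some genes of the lists are not reported here.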

Additional observations from a re-analysis of the deposited data

Results flagged for a closer look

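In 306 groups of 4 or 5 animals, 1 animal stood far from the rest of its group for 14 member values, or 4.575% of groups, and chance flags about 1 in 20. In liver, THRSP was low in the ET-type animal S0276 (80.28 TPM against 391 to 647.4 TPM in the other ET-type livers) and IDI1 was high in the L-type animal S0355 (1641 TPM against 298.5 to 483 TPM). S0355 was also low for IDI1 in spleen (12.61 TPM against 18.53 to 20.07 TPM), high for ELOV6 in lung (9.597 TPM against 3.98 to 4.893 TPM) and low for FADS2 in kidney (2.074 TPM against 4.484 to 4.92 TPM). The ET-type animal S0242 was high in kidney for ERG1 (12.26 TPM against 3.002 to 3.728 TPM) and CP51A (32.63 TPM against 13.44 to 15.06 TPM), and low in lung for PMVK (19.81 TPM against 34.91 to 37.89 TPM).

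Of the remaining values, S0385 was high among L-type hearts for SC5D (7.729 TPM against 4.795 to 5.443 TPM) and S0326 among ET-type hearts for SRBP2 (21.39 TPM against 12.4 to 13.27 TPM). S0377 was low in L-type lung for INSI1 (24.33 TPM against 47.38 to 59.66 TPM) and in L-type heart for ACLY (4.018 TPM against 5.667 to 6.093 TPM). S0276 was low in ET-type lung for ACLY (28.32 TPM against 32.99 to 34.88 TPM), and S0349 was high in L-type lung for PLPL3 (6.746 TPM against 0.1765 to 0.4084 TPM).

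The type difference varied between tissues for 8 members by the interaction test in limma, with adjusted p of 0.008184 for LSS, 0.0132 for FAS, 0.0138 for IDI1, 0.02688 for THRSP, 0.02741 for ELOV6, 0.03651 for HMDH, 0.03655 for FDFT and 0.03762 for FADS1.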

How the results depend on the processing

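No called value changed sign under any alternative run: 106 of 115 counts of called members, 87 of 92 arm medians and 2456 of 2613 values of single members kept their side of the threshold or stayed within the limits set. With the animal as replicate block the liver count between types was 10 in place of 0, the spleen count 1 in place of 5 and the interaction count 14 in place of 8. The spleen count was 3 with no filter, 1 with median-ratio scaling (PMVK, higher), 0 without mitochondrial transcripts and the 10 highest genes and 8 with members from long matches only. The interaction count was 5 with median-ratio scaling and 4 with the S0235 kidney kept. For these spleen and interaction counts, and for those without 1 animal, the share of all genes called is not given here. The fatty acid median in heart was 0.42 with no filter, 0.44 with median-ratio scaling and 0.42 with the block, and in spleen the medians were 0.13 (sterol) and -0.03 (fatty acid) with median-ratio scaling, which moved the median of all genes there from -0.47 to 0.01. In kidney it moved that median from -0.28 to 0.00 and in heart from 0.09 to -0.04. Leaving out each animal gave type counts of 0 to 3 in heart, 0 to 0 in kidney, 0 to 1 in liver, 0 to 0 in lung and 0 to 9 in spleen (9 without S0355), 0 to 12 for the interaction and 0 to 0 over 4 tissues, and tissue counts of 29 to 30 in heart, 8 to 11 in kidney, 27 to 29 in liver, 15 to 17 in lung and 19 to 21 in spleen. The sterol medians then ran from 0.21 to 0.49 in heart, -0.20 to 0.09 in kidney, 0.41 to 0.74 in liver, 0.06 to 0.18 in lung and -0.55 to -0.28 in spleen, and the fatty acid medians from 0.37 to 0.64, -0.06 to 0.30, 0.05 to 0.70, -0.30 to 0.03 and -0.64 to -0.45 in the same order. Over the 19 alternatives the adjusted p ran from 0.000121 to 0.741 for IDI1 in liver, 0.00160 to 0.723 for ELOV6 in liver, 0.00227 to 0.741 for PLPL3 in liver, 0.0239 to 0.344 for FAS in spleen and 0.0279 to 0.259 for SC5D in spleen. The cause of these changes was not tested, other than that the block fit pools the spread over tissues and the replicates left out make groups smaller. Without read counts, what depth limits cannot be given.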

Other observations

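For 2 members with a full-length transcript and an end fragment, the means of these stood in a different order between types. In lung the full-length SRBP2 transcript had means of 48.9 TPM in the ET-type and 78.0 TPM in the L-type, and the fragment 89.0 TPM and 48.97 TPM. In spleen the full-length HMCS1 transcript had means of 2.83 TPM in the ET-type and 7.82 TPM in the L-type, and the fragment 4.16 TPM and 2.97 TPM. For HMDH in spleen both were lower by their means in the ET-type, at 0.970 TPM and 2.60 TPM for the full-length transcript and 2.82 TPM and 3.19 TPM for the fragment. These genes were chosen after their values were seen, the differences were not tested, and neither was their cause.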
